A study of Mus musculus with 8 samples.

Results

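The Sprouty, Spred and Dusp feedback inhibitors are genes that are switched on by the RAS-ERK pathway and whose products dampen it. Here 10 of them, *Spry1*, *Spry2*, *Spry4*, *Spred1*, *Spred2*, *Spred3*, *Dusp4*, *Dusp5*, *Dusp6* and *Il17rd*, were followed by symbol among the 53465 genes of a mouse ventricle RNA-seq table. All 10 were found and all 10 passed the filter on low counts, which left 15580 genes for testing. The comparison asks how these inhibitors respond when neuregulin-1 is overproduced in the embryonic heart.

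Poly(A) RNA came from heart ventricles of mouse embryos at E15.5, in 2 groups of 4 libraries each (8 in all). The gain-of-function genotype, called *Nrg1GOF*, is labelled Rosa26Nrg-1;Nkx5.5-Cre, while the series title gives the driver as Nkx2.5-Cre. It combines a neuregulin-1 transgene at the Rosa26 locus with Cre from the cardiac *Nkx2.5* locus, which is active in cardiac progenitors and their descendants, so transgene expression is not limited to the mature trabecular or compact layer. The other genotype is labelled WT, and whether WT embryos carried the transgene or Cre alone, the strain background, the sex and the litter were not given in the sources used here. The series' design text gives 1 ventricle for each replicate. Nothing states that the samples came from separate embryos, so p values measure the spread between these samples.

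Neuregulin-1 is a secreted ligand that endocardial cells send to the ErbB2 and ErbB4 receptors of neighbouring cardiomyocytes, where it drives trabeculation. Activated receptors recruit adaptors, load RAS with GTP and set off the RAF, MEK and ERK kinases in turn. ERK then induces its own inhibitors. Sprouty proteins act close to the receptor and its adaptors, Spred proteins bring the RAS-inactivating protein neurofibromin to the membrane, the dual-specificity phosphatases Dusp4, Dusp5 and Dusp6 dephosphorylate ERK itself, and Il17rd (also called Sef) is a membrane protein known for inhibiting FGF receptor signalling.

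The ligand gene itself separated the genotypes as labelled. *Nrg1* reached 60.7, 59.7, 63.7 and 63.1 CPM in the *Nrg1GOF* libraries, numbered 1 to 4, where the WT libraries held 4.17, 4.42, 3.07 and 4.47 CPM (log2 fold change 3.94, SE 0.10). CPM is counts-per-million on a library size scaled by trimmed mean of M-values. Transgene and endogenous transcripts were not told apart. Library totals ran from 8038641 counts in *Nrg1GOF* library 4 to 26786039 counts in WT library 1. WT libraries 1 and 2 were close to each other, with a chi-square of their counts of 7.73 per degree of freedom, as were WT libraries 3 and 4 at 3.93, while WT libraries of different pairs gave 29.3 to 35.3. In *Nrg1GOF* the closest pair was libraries 2 and 4 at 4.35 and the others gave 10.5 to 25.4, and this measure is smaller at lower depth, which was least in *Nrg1GOF* library 4. All exceed counting noise, so no library is a second copy of the same counts, but whether the libraries of a pair share tissue, litter or a batch was not tested, and no label names the pairs. Each library was counted as a sample, and with each WT pair summed to 1 sample 8 inhibitors were still called higher.

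Of the 10 inhibitors, 8 were higher in *Nrg1GOF* and none was lower by the quasi-likelihood test of edgeR at an adjusted p under 0.05, described below as called. Among all tested genes 28.7% were called, 15.9% higher and 12.8% lower. In the same 8 genes every *Nrg1GOF* library lay above every WT library, against 16.6% of all tested genes (30.7% did not overlap in either direction). The median log2 fold change of the 10 was 0.63, beside -0.012 over all tested genes. *Spred3* and *Il17rd* did not pass the test and overlapped between the groups. In bulk tissue, more transcript per cell and more cells of an expressing type cannot be told apart.

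**Figure D1:**
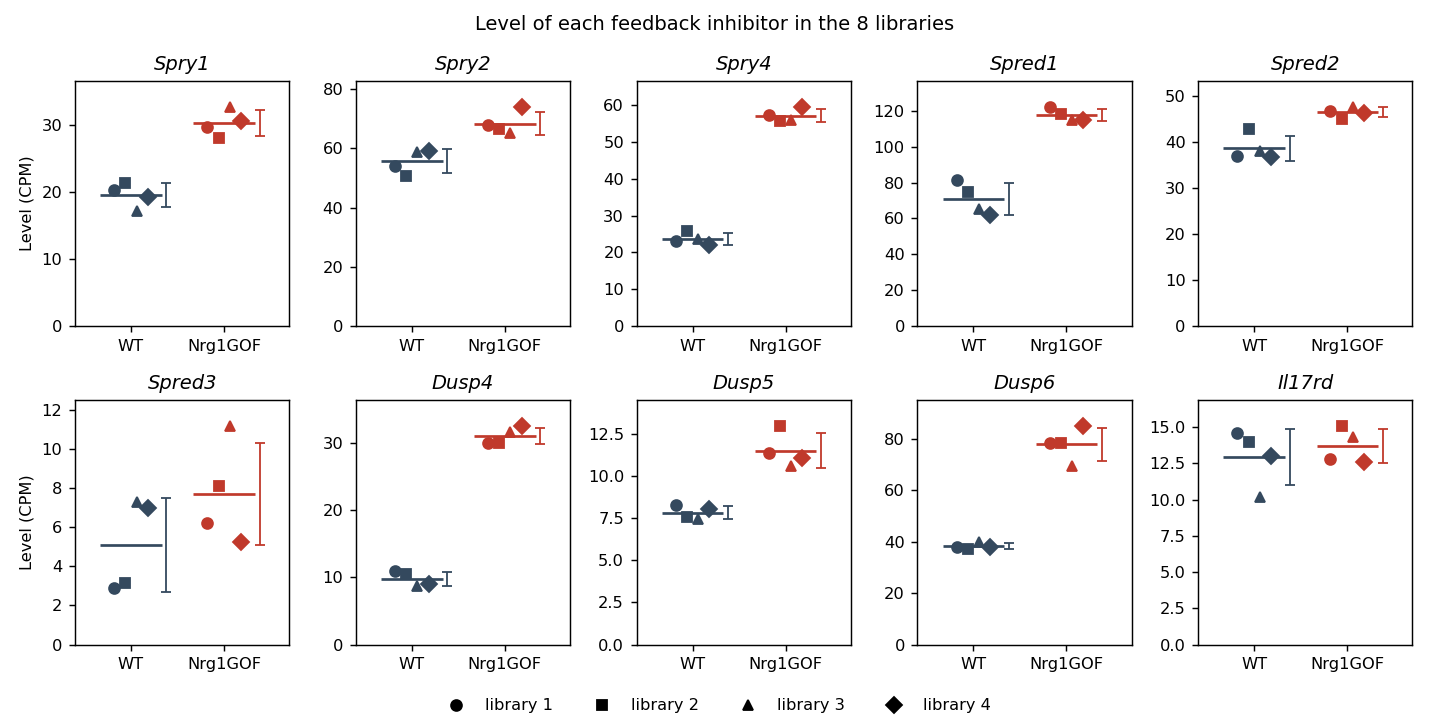
Level in CPM (vertical axes, starting at 0) of each inhibitor in 4 WT (dark) and 4 *Nrg1GOF* (red) libraries, with marker shape giving the library number, horizontal lines the group means and side bars the SD. In 8 panels the groups do not overlap, whereas *Spred3* and *Il17rd* overlap and WT libraries 1 and 2 sit below WT libraries 3 and 4 for *Spred3*.

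Sprouty genes were compared at the receptor-proximal step. *Spry4* (ENSMUSG00000024427, GRCm38 chromosome 18, 38586247 to 38601415, minus strand), which encodes an inhibitor of receptor-driven RAS and RAF activation, moved most in the family. It was measured at 57.5, 55.9, 56.0 and 59.5 CPM in *Nrg1GOF*, and at 23.2, 25.9, 23.8 and 22 CPM in WT. Both groups were tight, with a wide gap between them. The group means were 57.2 ± 1.69 and 23.7 ± 1.65 CPM (SD, n = 4 each), a 2.41-fold rise (log2 fold change 1.27, SE 0.06, edgeR adjusted p = 1.88e-06). By p value *Spry4* ranked 13 among all tested genes.

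*Spry1* (ENSMUSG00000037211, chromosome 3, 37639947 to 37644598, plus strand) encodes a Sprouty protein best known from kidney development. It stood at 29.7, 28.0, 32.6 and 30.6 CPM in *Nrg1GOF* and at 20.2, 21.3, 17.1 and 19.3 CPM in WT, with a clear gap between the groups. The rise was 1.55-fold (log2 fold change 0.63, SE 0.08, edgeR adjusted p = 0.000439). A gene model on the opposite strand, *Gm42922*, overlaps exons of *Spry1* but did not exceed 0.952 CPM in any library.

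*Spry2* (ENSMUSG00000022114, chromosome 14, 105891947 to 105896819, minus strand) encodes the member that binds the adaptor Grb2 and the ubiquitin ligase Cbl. It had 67.8, 66.4, 65.3 and 73.9 CPM in *Nrg1GOF* against 54.1, 50.8, 58.7 and 59.1 CPM in WT. The groups did not overlap, but the step between them was small, 1.22-fold (log2 fold change 0.29, SE 0.07, edgeR adjusted p = 0.00811). The call held against either WT pair, with log2 fold changes of 0.37 for libraries 1 and 2 (edgeR adjusted p = 0.00949) and 0.22 for libraries 3 and 4 (edgeR adjusted p = 0.0439).

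Of the Spred genes, 2 rose and 1 was not called. *Spred1* (ENSMUSG00000027351, chromosome 2, 117121374 to 117182279, plus strand), whose human counterpart is mutated in Legius syndrome, reached 122, 118, 115 and 115 CPM in *Nrg1GOF* and 81.2, 74.5, 65.5 and 61.9 CPM in WT. All *Nrg1GOF* libraries were above all WT libraries, and WT libraries 3 and 4 were the lowest. The rise was 1.66-fold, from 70.8 ± 8.75 to 118 ± 3.19 CPM (SD, n = 4 each), or 0.73 on the log2 scale (SE 0.08, edgeR adjusted p = 0.000205). It was 0.59 against WT libraries 1 and 2 and 0.89 against WT libraries 3 and 4 (edgeR adjusted p = 0.000818 and 7.69e-05). *Spred1* had the highest CPM of the 10 in both groups.

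*Spred2* (ENSMUSG00000045671, chromosome 11, 19924375 to 20024026, plus strand), its close relative, had 46.8, 45.0, 47.5 and 46.3 CPM in *Nrg1GOF* and 37.0, 42.7, 37.9 and 36.7 CPM in WT. Here WT library 2 came close to the *Nrg1GOF* libraries, but the groups did not overlap. The log2 fold change was 0.27 (SE 0.06, edgeR adjusted p = 0.00837), the smallest of the 8 calls. With libraries 1 and 2 as the sole WT samples the call was lost (log2 fold change 0.22, edgeR adjusted p = 0.0833), and with libraries 3 and 4 it held (0.32, edgeR adjusted p = 0.00615).

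*Spred3* (ENSMUSG00000037239, chromosome 7, 29158829 to 29170411, minus strand) was the least abundant member of its family and the most variable of the 10. It was at 6.22, 8.10, 11.2 and 5.25 CPM in *Nrg1GOF* and at 2.87, 3.16, 7.32 and 7.01 CPM in WT. The 2 WT pairs differed from each other by more than the group means did. Its log2 fold change was 0.62, with a 95% interval from -0.16 to 1.39 (SE 0.35, edgeR adjusted p = 0.220), so neither no change nor a change as large as that of *Spry4* lies outside the interval. The WT pairs gave unlike results, a call with libraries 1 and 2 (log2 fold change 1.38, edgeR adjusted p = 0.0137) and none with libraries 3 and 4 (0.14, edgeR adjusted p = 0.728). Exons of *Spred3* overlap the protein-coding gene *Ggn* on the opposite strand, which had 0.382 to 1.38 CPM, and no source used here says how strand was handled in counting.

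**Figure D2:**
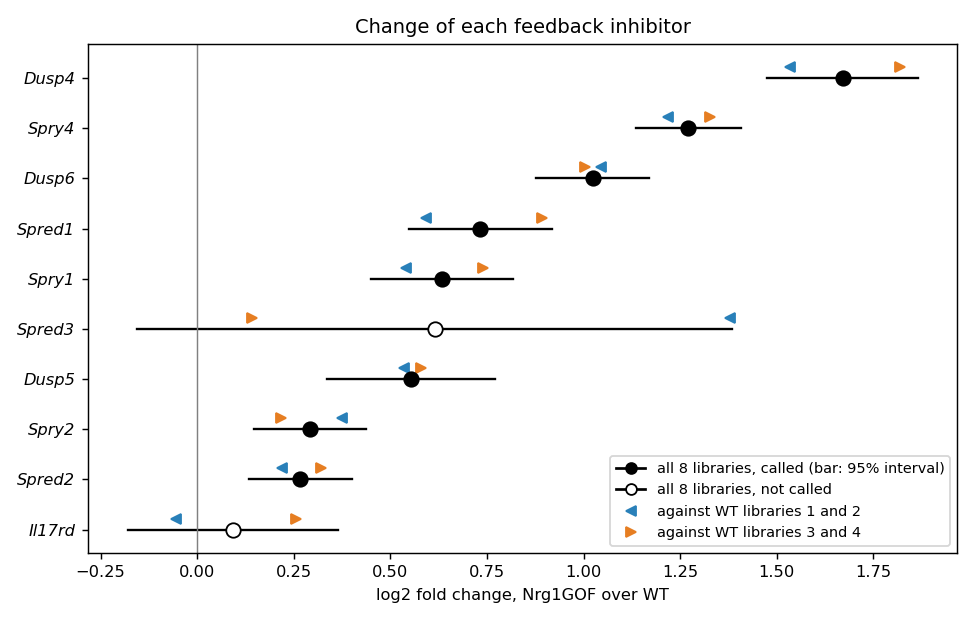
log2 fold change of *Nrg1GOF* over WT (horizontal axis) for each inhibitor with all 8 libraries (circles, filled when called, with 95% intervals) and against each WT pair alone (triangles). Among the circles *Dusp4*, *Spry4* and *Dusp6* lie furthest to the right, and the triangles of *Spred3*, at 1.38 and 0.14, are the furthest apart.

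The phosphatases acting on ERK held the largest and the third largest rise of the 10. *Dusp4* (ENSMUSG00000031530, chromosome 8, 34807297 to 34819894, plus strand) encodes a nuclear phosphatase of ERK and of the related stress kinases. In *Nrg1GOF* it reached 30.0, 30.1, 31.6 and 32.6 CPM, where WT libraries held 10.9, 10.5, 8.69 and 8.97 CPM. The means were 31.1 ± 1.24 and 9.76 ± 1.09 CPM (SD, n = 4 each), a 3.18-fold rise (log2 fold change 1.67, SE 0.09, edgeR adjusted p = 3.28e-06). *Dusp4* ranked 139 of 15580 by log2 fold change and 20 by p value.

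*Dusp6* (ENSMUSG00000019960, chromosome 10, 99263231 to 99267489, plus strand) encodes the cytoplasmic ERK phosphatase that is widely used as a readout of FGF and ERK activity. It stood at 78.5, 78.4, 69.6 and 85.1 CPM in *Nrg1GOF* and at 37.9, 37.2, 40.0 and 37.9 CPM in WT. The WT libraries were tightly grouped, and the *Nrg1GOF* libraries were more spread but far above them. The rise was 2.03-fold (log2 fold change 1.02, SE 0.07, edgeR adjusted p = 9.92e-06), and it was alike against WT libraries 1 and 2 (1.05) and WT libraries 3 and 4 (1.00). In all, 3 of the 10 inhibitors were called with a log2 fold change above 1, against 3.74% of all tested genes.

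*Dusp5* (ENSMUSG00000034765, chromosome 19, 53529109 to 53542431, plus strand), which encodes a nuclear phosphatase specific to ERK, had 11.4, 13, 10.6 and 11.1 CPM in *Nrg1GOF* and 8.29, 7.58, 7.48 and 8.03 CPM in WT. The groups were separate at a low level, with 89 counts in the shallowest library. Its rise was 1.47-fold (log2 fold change 0.55, SE 0.10, edgeR adjusted p = 0.00232). An antisense transcript is annotated across exons of *Dusp5*, and its share of the reads was not tested.

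*Il17rd* (ENSMUSG00000040717, chromosome 14, 27038941 to 27107286, plus strand) did not follow the phosphatases. It was at 12.8, 15.1, 14.3 and 12.6 CPM in *Nrg1GOF* and 14.6, 14.0, 10.2 and 13 CPM in WT. The groups overlap, and the lowest library of the 8 was WT library 3. The log2 fold change was 0.092 (SE 0.12, edgeR adjusted p = 0.626), with a 95% interval from -0.18 to 0.36. The sign differed between the WT pairs, at -0.054 against libraries 1 and 2 and 0.26 against libraries 3 and 4 (edgeR adjusted p = 0.794 and 0.199). The upper bound of the interval from all 8 libraries is below the log2 fold change of *Dusp5*, *Spry1*, *Spred1*, *Dusp6*, *Spry4* and *Dusp4*, but the difference between *Il17rd* and these genes was not tested.

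Sequence upstream of the annotated start (250 bases, RefSeq, GRCm38.p6) was available for 8 of the 10 inhibitors, all except *Spry4* and *Dusp4*. These starts can differ from the gene positions given above. The windows of *Spred2*, *Dusp5* and *Il17rd* run past those gene starts, and that of *Spred3* lies within the gene. The windows of *Dusp6*, the largest rise among these 8, of *Dusp5*, which alone holds CArG boxes, and of *Il17rd*, which was not called, are shown on the plus strand so that called genes can be set beside an uncalled gene, with CArG boxes (the binding motif of serum response factor) in capitals for *Dusp5* and GGGCGG in capitals for *Il17rd*. The *Dusp5* window holds GGGCGG as well, left in lower case.
*Dusp6*, chr10:99262981-99263230: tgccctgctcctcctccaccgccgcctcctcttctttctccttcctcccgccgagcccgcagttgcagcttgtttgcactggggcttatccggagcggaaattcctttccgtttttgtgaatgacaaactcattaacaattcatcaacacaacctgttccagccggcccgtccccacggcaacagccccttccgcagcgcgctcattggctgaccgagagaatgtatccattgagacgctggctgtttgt
*Dusp5*, chr19:53528895-53529144: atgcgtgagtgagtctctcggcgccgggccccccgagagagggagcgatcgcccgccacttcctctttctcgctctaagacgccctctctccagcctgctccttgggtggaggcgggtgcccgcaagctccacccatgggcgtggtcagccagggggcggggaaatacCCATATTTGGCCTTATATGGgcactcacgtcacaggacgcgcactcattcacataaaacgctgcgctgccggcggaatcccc
*Il17rd*, chr14:27038751-27039000: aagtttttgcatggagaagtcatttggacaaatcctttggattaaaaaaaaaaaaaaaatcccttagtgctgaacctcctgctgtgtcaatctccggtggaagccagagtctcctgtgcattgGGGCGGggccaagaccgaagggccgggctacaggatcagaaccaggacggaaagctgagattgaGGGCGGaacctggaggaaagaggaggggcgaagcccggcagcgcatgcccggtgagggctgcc

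Motifs were searched on both strands, and no match of one motif overlapped a match of another. The *Dusp5* window holds 2 adjacent CArG boxes, which begin 82 and 72 bases before the start, while 1.47% of all 32851 promoter windows hold a CArG box and 6 windows hold 2 or more. The ETS-type letters CCGGAA, in 12.03% of all windows, and the AP-1-type letters TGANTCA, in 6.75%, were in none of the 8. Other forms of ETS or AP-1 sites were not searched, so the windows cannot be said to lack such sites. TGACG, the core of a cyclic AMP response element, was in the windows of *Spred2* and *Dusp5* and in 17.77% of all. GGGCGG, a GC box, was in 6 of the 8 (*Spry1*, *Spred1*, *Spred2*, *Spred3*, *Dusp5* and *Il17rd*), called and uncalled genes alike, and in 32.74% of all. The 8 windows held 54.4% to 70.8% GC (median 59.4%), where the middle of all windows ran from a lower quartile of 45.2% to an upper quartile of 61.2%. These matches describe letters in short windows, and sites elsewhere in the genes were not searched.

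Whether relatives within a family rose by unequal amounts was tested on the log2 ratio of their counts per library, which does not depend on scaling. Of 9 ratios, 6 differed between the genotypes (two-sided exact permutation test, p = 0.0286, the smallest that 4 against 4 libraries allows, 0.0429 adjusted over the 9). At that p a ratio passes the adjustment only when at least 6 of the 9 reach it, so no call stands alone. Within a family each ratio follows from the others, so the 6 are not separate findings. *Spry4* gained on both relatives. The log2 ratio *Spry2*/*Spry4* was 0.239, 0.248, 0.223 and 0.312 in *Nrg1GOF* and 1.222, 0.972, 1.304 and 1.428 in WT, a difference of -0.98, and *Spry1*/*Spry4* fell by 0.64 on the log2 scale.

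*Dusp4* likewise gained on *Dusp5* by 1.13 and on *Dusp6* by 0.65 on the log2 scale, and *Dusp5* fell by 0.47 relative to *Dusp6*. The *Dusp4*/*Dusp5* ratio went from between 0.160 and 0.474 in WT to between 1.219 and 1.579 in *Nrg1GOF*. *Spred1* gained 0.47 on *Spred2*, with WT library 1 apart from the other WT libraries in this ratio. After thinning to the smallest total it did not pass (0.40, exact permutation p adjusted 0.0735), while *Spry1*/*Spry2* did (0.35, adjusted 0.0429). With all counts the remaining 3 ratios did not pass. *Spry1*/*Spry2* differed by 0.34 (exact permutation p = 0.0571, 0.0735 adjusted), and the ratios with *Spred3* varied too widely, with *Spred1*/*Spred3* between 3.143 and 4.825 in WT. With any *Nrg1GOF* library left out, none of the 9 passed after adjustment (lowest adjusted p = 0.0514 by exact permutation). The ratios at 0.0514 kept an exact permutation p of 0.0286, the smallest that 4 against 3 libraries allow. Too few ratios reached it for any to pass, so the loss of these calls does not show dependence on a single library. The differences stayed of similar size, from -0.995 to -0.965 for *Spry2*/*Spry4* and from 1.078 to 1.199 for *Dusp4*/*Dusp5*.

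**Figure D3:**
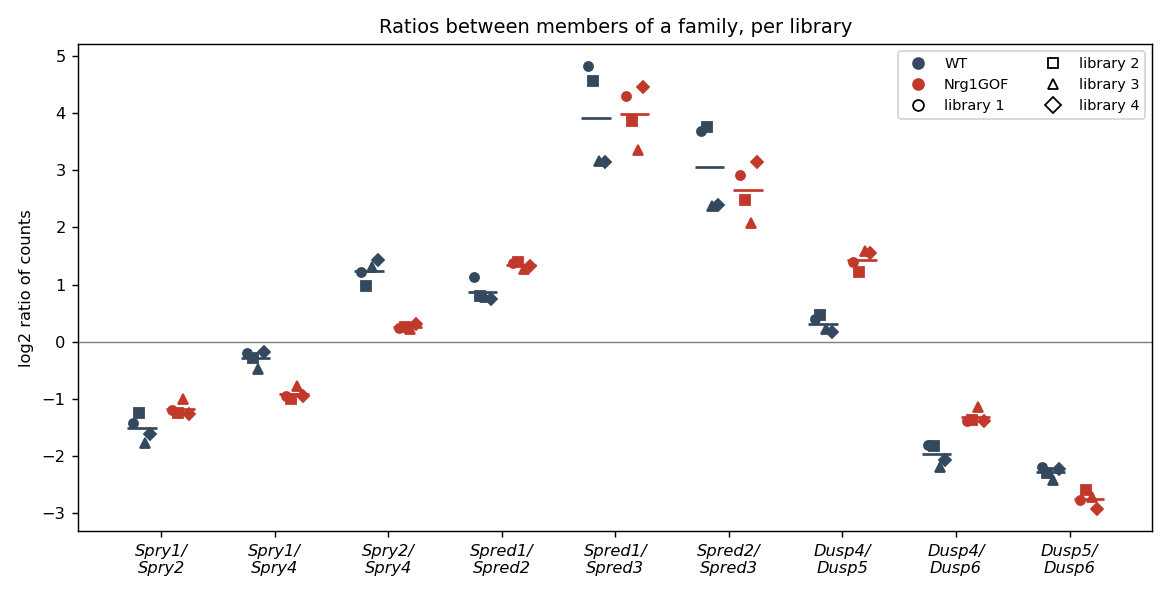
log2 ratio of counts (vertical axis) between members of the same family in each WT (dark) and *Nrg1GOF* (red) library, with lines at the group means and marker shape giving the library number. *Spry2*/*Spry4* drops from a mean of 1.23 to 0.26 and *Dusp4*/*Dusp5* climbs from 0.31 to 1.44 without overlap, while the ratios with *Spred3* overlap.

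Levels were set side by side per length, as CPM per kb of the longest annotated coding transcript. In WT, *Spry2* led with 26.7 ± 1.89 CPM per kb, followed by *Dusp6* at 13.7 ± 0.43 and *Spred1* at 11.8 ± 1.45 CPM per kb (SD, n = 4 each). The ranges of *Dusp6* and *Spred1* met, so their order was not settled by the spread. *Spred2* (8.68), *Spry1* (7.03), *Spry4* (4.99), *Dusp4* (3.56) and *Dusp5* (3.17) came next in mean CPM per kb. The ranges of *Dusp4* and *Dusp5* overlapped, from 3.17 to 3.96 and from 3.03 to 3.35. *Il17rd* and *Spred3* were lowest at 1.56 and 1.25 CPM per kb, and their ranges overlapped too.

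In *Nrg1GOF* the leading 3 kept their places, with *Spry2* at 32.8 ± 1.83, *Dusp6* at 27.9 ± 2.28 and *Spred1* at 19.6 ± 0.53 CPM per kb. Behind them *Spry4* (12), *Dusp4* (11.3), *Spry1* (10.9) and *Spred2* (10.4) were close together, and the ranges of neighbours in this order overlapped. The position of *Spry4* moved from 6 to 4 and that of *Dusp4* from 7 to 5. Within the Sprouty family, *Spry4* made up 11.6% to 14.5% of the summed per-kb level in WT and 21.2% to 21.9% in *Nrg1GOF*, while the part of *Spry2* went from between 65.0% and 71.6% to between 57.1% and 60.0%. Among the 3 phosphatases, the part of *Dusp4* went from between 15.5% and 19.0% to between 24.8% and 28.3%.

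Other genes of the pathway were taken from fixed lists, which were chosen with earlier results of these data known. Of 7 further MAP kinase phosphatases, 3 were called higher and 2 lower, 71.4% called against 28.7% of all tested genes. With a library left out, 1 to 3 were called higher and 1 to 2 lower, so calls in both directions remained but their counts were unstable. *Dusp7*, an ERK phosphatase close to *Dusp6*, rose from 32.1 ± 2.74 to 41.9 ± 3.41 CPM (SD, n = 4 each; log2 fold change 0.38, SE 0.08, edgeR adjusted p = 0.00607), and lost its call against WT libraries 1 and 2 alone (adjusted p = 0.0528). *Dusp2* (0.54, adjusted p = 0.0306) and *Dusp1* (0.21, adjusted p = 0.0345), early response phosphatases, were weaker calls and lost them in 8 and 12 of 23 alternative fits. *Dusp9*, the third phosphatase of the *Dusp6* type, was called lower, with 1.63, 2.0, 1.67 and 1.88 CPM in *Nrg1GOF* and 3.21, 3.22, 2.79 and 2.99 CPM in WT (log2 fold change -0.77, SE 0.17, edgeR adjusted p = 0.00685), and lost this call after thinning to the smallest total (-0.53). *Dusp10*, which acts on stress kinases, had a log2 fold change of -0.34 (adjusted p = 0.0384) and lost its call in 12 of 23 alternative fits, among them that with libraries scaled by their total (-0.29). *Dusp8* (0.32, adjusted p = 0.133) and *Dusp16* (-0.089, adjusted p = 0.428) did not pass.

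Other transcripts known to follow ERK activity were compared next. Of 11 tested, 10 (90.9%) were called higher and none lower, against 15.9% higher and 12.8% lower of all tested genes. The median log2 fold change of the 11 was 0.91. The ETS factor genes *Etv4* and *Etv5* led. *Etv4* had 27.1, 28.9, 30.3 and 27.9 CPM in *Nrg1GOF* and 6.65, 6.38, 6.59 and 6.84 CPM in WT (log2 fold change 2.11, SE 0.07, edgeR adjusted p = 2.61e-07), and *Etv5* rose by 1.71 on the same scale (SE 0.09, edgeR adjusted p = 3.07e-06). *Phlda1* (1.63), the immediate early genes *Fos* (1.51) and *Egr1* (1.20), the receptor gene *Epha2* (0.91), *Etv1* (0.52), *Epha4* (0.51), *Ier3* (0.44) and the G1 cyclin gene *Ccnd1* (0.43) were also called higher on the log2 scale, with adjusted p from 5.98e-06 for *Phlda1* to 0.0418 for *Epha4*. *Epha4* overlapped between the groups and lost its call in 7 of 23 alternatives. *Myc* did not pass, at 0.17 (adjusted p = 0.218), and *Fosl1* was too low to be tested.

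Genes of the receptors and the kinase cascade gave a mixed picture. Of 33, 8 were called higher, 5 lower and 20 in neither direction, 39.4% called against 28.7% of all tested genes, with a median log2 fold change of 0.00. The 5 called lower became 3 without *Nrg1GOF* library 1, without *Nrg1GOF* library 4 and with libraries scaled by their total. The adaptor gene *Gab1* was lower, from 184 ± 0.86 to 125 ± 2.63 CPM (log2 fold change -0.56, SE 0.04, adjusted p = 3.07e-05), and its relative *Gab2* was higher (0.53, adjusted p = 0.000133). *Erbb2*, the co-receptor of neuregulin-1 signalling, was lower in *Nrg1GOF*, at -0.45 on the log2 scale (SE 0.05, edgeR adjusted p = 0.000184), while *Erbb4*, for its partner receptor, was not called (-0.53, SE 0.20, edgeR adjusted p = 0.0786). The *Erbb4* value gained a call as lower in 6 of the 23 alternatives, among them DESeq2 (-0.54, adjusted p = 0.0254) and the fits without WT library 3 or WT library 4 (-0.65 in each), and ran from -0.86 to -0.098 over all 23. Of the other 6 receptor genes of the list, 4 were higher, namely *Fgfr2* (log2 fold change 1.36, edgeR adjusted p = 0.000429), *Egfr* (1.21, 0.00178), *Fgfr1* (0.71, 0.000247) and *Fgfr3* (0.61, 0.0254), the last of which lost its call in 7 of 23 alternatives, while *Erbb3* (0.083, edgeR adjusted p = 0.561) and *Fgfr4* (0.86, edgeR adjusted p = 0.185) were not called.

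Of 15 other negative regulators of RAS or receptor signalling, 4 (26.7%) were called higher and none lower, where 28.7% of all tested genes were called in either direction and 15.9% higher, so nothing is read from this share. These were the RAS GTPase-activating protein genes *Rasa3* (log2 fold change 0.71, SE 0.06, edgeR adjusted p = 3.94e-05) and *Dab2ip* (0.46, adjusted p = 0.000129), the heparan sulphatase gene *Sulf2* (0.40, adjusted p = 0.00237) and the cytokine signalling suppressor gene *Socs3*. *Sulf1*, for the other heparan sulphatase, was not called (0.35, edgeR adjusted p = 0.0661) but was called higher in 7 of 23 alternatives, which brings the count to 5 with DESeq2, for example. *Errfi1*, a feedback inhibitor of ErbB receptor kinases, was among the other 11, at -0.11 on the log2 scale (SE 0.07, edgeR adjusted p = 0.291). Among 8 genes for binding partners of Sprouty and Spred proteins, *Cav1*, for caveolin-1, was called lower (-0.36, adjusted p = 0.00178). *Nf1*, for neurofibromin, was not called (0.30, adjusted p = 0.180), nor was *Cbl* (0.24, adjusted p = 0.282). Both were called higher against WT libraries 3 and 4 alone, at 0.64 for *Nf1* and 0.57 for *Cbl*, and *Nf1* also without WT library 2 (0.44, edgeR adjusted p = 0.0377). *Grb2* was at the margin, with a log2 fold change of -0.14 (adjusted p = 0.0487), and lost its call in 19 of 23 alternatives.

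**Figure D4:**
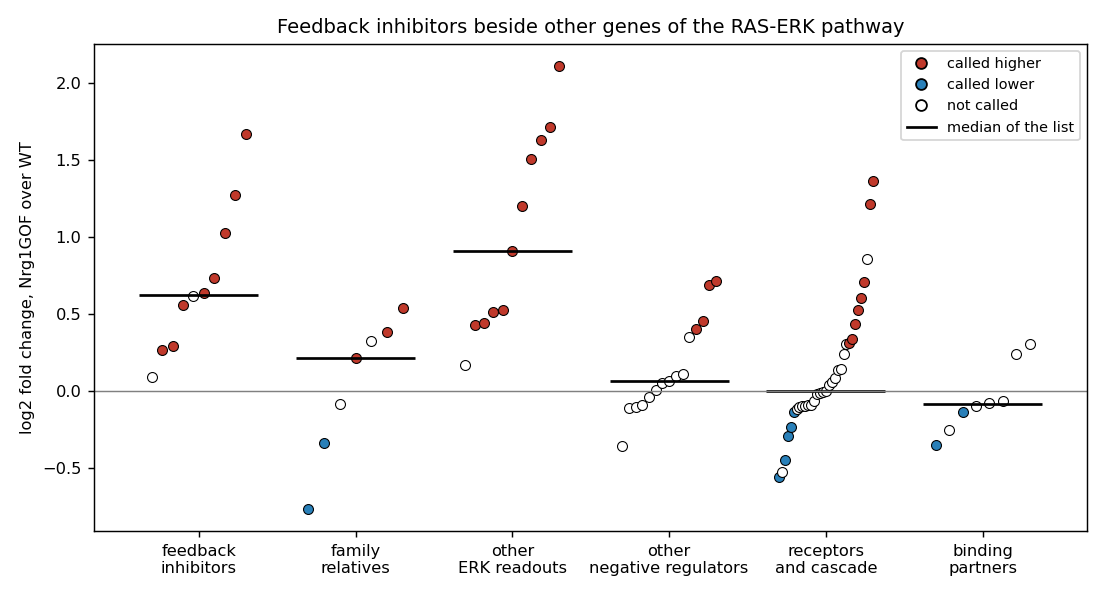
log2 fold change of *Nrg1GOF* over WT (vertical axis) for each tested gene (points, sorted within a list) of the 10 inhibitors and 5 other lists of the RAS-ERK pathway, coloured by call, with lines at the list medians. The inhibitors (median 0.63) and the other ERK readouts (median 0.91) lie mostly above 0, while receptors and cascade genes lie on both sides.

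Among the genes with a pattern most like that of *Dusp4*, the strongest riser, were *Etv5* and *Phlda1*, out of 10311 protein-coding genes at an average log2 CPM of at least 3. Likeness was the root mean square difference of centred log2 CPM over the 8 libraries, which was 0.0488 for *Etv5* and 0.113 for *Phlda1* against a median of 0.864. Nearest to *Spred2*, the weakest call, were *Cped1* (0.0423), *Acvr1* (0.0495) and *Rab8b* (0.0501), where the median was 0.213.

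Markers of the cell types in the tissue moved with the genotype as well. The ventricular markers *Myh7* and *Myl2* were abundant in every library, and the summed level of 8 cardiomyocyte markers was 36260 to 42340 CPM in *Nrg1GOF* and 45350 to 47990 CPM in WT. Sums of 8 fibroblast and mural markers were 5992 to 7747 CPM against 3490 to 4669 CPM. Of these 8 markers, 7 were called higher and 1 lower, and all 5 macrophage markers were called higher, at sums of 81.63 to 97.63 CPM against 43.64 to 53.58 CPM. The fibroblast and mural, macrophage, atrial, endothelial and endocardial, and epicardial sums all stood higher in *Nrg1GOF* without overlap, and the cardiomyocyte sum lower, with 4 of its 8 markers called lower. Called higher were 3 of 6 atrial, 4 of 8 endothelial and endocardial and 3 of 5 epicardial markers, with 1 epicardial marker lower. In the ratio of group means the sums changed 1.66-fold (fibroblast and mural), 1.83-fold (macrophage), 1.62-fold (6 atrial markers), 1.13-fold (5 epicardial), 1.11-fold (8 endothelial and endocardial) and 0.846-fold (cardiomyocyte). Red blood cell markers (6) overlapped between the groups, and of 4 Schwann and neural markers 3 were at 0 in at least 1 library. The mitochondrial share of counts was 3.096% to 4.345% in *Nrg1GOF* and 4.298% to 5.778% in WT, highest in WT libraries 3 and 4. The part of these shifts in the rise of the inhibitors was not tested.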

How the data were processed

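The deposited values are expected counts (estimated counts that need not be whole) from RSEM, 1 column per library, without scaling for depth or length. The submitters' processing notes name cutadapt, RSEM 1.3.1 and GRCm38, and the table's name gives Ensembl release 91. The aligner and strand setting were not given in the sources used here. Single reads of directional libraries were sequenced. Symbols were matched for 53274 of 53465 genes, and positions and transcript lengths came from GENCODE M21, also on GRCm38 but a later release.

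Expected counts were rounded, filtered with filterByExpr, scaled by trimmed mean of M-values and tested with the quasi-likelihood F-test of edgeR 4.0.16 (R 4.3.3) with genotype as the sole term. The authors also fitted their data in edgeR. P values were two-sided and Benjamini-Hochberg adjusted over 15580 genes. SE is the absolute log2 fold change over the square root of F, and 95% intervals use its t distribution. Family ratios were tested by exact permutation of libraries. The edgeR step was tested on simulated data.

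The inhibitors, gene lists and tests were chosen with earlier results of these data known. All 10 inhibitors, *Nrg1*, the further phosphatases, the other ERK readouts and, per remaining list, the 3 called genes with the smallest adjusted p were named by rule. Other pathway genes named (*Erbb3*, *Erbb4*, *Fgfr1* to *Fgfr4*, *Egfr*, *Socs3*, *Sulf1*, *Errfi1*, *Nf1*, *Cbl*) were chosen after their values were seen. Some genes that the rule or a list holds are not reported here. *Spry3* was not analysed here. Alternatives were the replicate block, the likelihood ratio test, DESeq2 1.42.0, limma-voom (limma 3.58.1), 3 scalings, 2 filters, counts left unrounded, the summed level of 4 Y-linked genes as a covariate, thinning to the smallest total, the WT pairs summed or alone, and leaving out each library. A count of 3 corresponds to 0.112 to 0.3732 CPM (unscaled totals), which covers counting error only.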

Additional observations from a re-analysis of the deposited data

Results flagged for a closer look

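Values of single libraries far from the other 3 of their group were sought with the 95% critical value of Dixon's test. Of 94 groups of values, 4 held such a library, where chance at 1 in 20 gives 4.7. The total of *Nrg1GOF* library 4, 8038641 counts, lay below the 20578081 to 22547833 counts of the other *Nrg1GOF* libraries. *Epha4* was at 20.9 CPM in *Nrg1GOF* library 4 against 28.5 to 29.4 CPM in the others. The log2 ratio *Spred1*/*Spred2* was 1.13 in WT library 1 against 0.754 to 0.803 in the other WT libraries. The log2 ratio *Dusp4*/*Dusp6* was -1.14 in *Nrg1GOF* library 3 against -1.39 to -1.38 in the others. No cause of these values was tested.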

How the results depend on the processing

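Of 230 log2 fold changes of the inhibitors recomputed under 23 alternatives, 225 had the same sign and the same call. *Spred2* was not called against WT libraries 1 and 2 alone (0.22), where *Spred3* was (1.38). *Il17rd* reversed to -0.044 after thinning, -0.054 against WT libraries 1 and 2 alone and -0.009 without WT library 3, and its values with a library left out ran from -0.009 to 0.156. The cause of these was not tested. The count of inhibitors called higher was 8 with each library left out, and none was called lower. Over all genes, summing the WT pairs gave 2464 calls, 2440 of them shared with the 4467, with fewer samples by construction, and leaving out a library gave 3239 to 4261. Libraries scaled by their total gave 65.39% of calls as higher, against 55.38%.

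Same-numbered libraries showed correlations of 0.0492 to 0.199 between their deviations from the group means, so they share a number and pairing was not established. A fit with the replicate block called 4524 genes and 8 inhibitors. Of the 9 family ratios 6 passed, and 0 to 7 did with a library left out. The 0 arises when a *Nrg1GOF* library is left out, where too few ratios reach the smallest exact p for any to pass the adjustment. The difference of *Spred1*/*Spred3* ran from -0.188 to 0.373 and was below 0 without *Nrg1GOF* library 1 or 4 or WT library 3 or 4. After thinning, *Spred1*/*Spred2* did not pass (0.40, exact permutation p adjusted 0.0735) and *Spry1*/*Spry2* did (0.35, 0.0429). Among the inhibitors *Spred3* had the lowest count of any library, 42.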
